A study of Mus musculus with 6 samples.

Results

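The genes described here are the core of the Hippo pathway and its transcription factors as measured by RNA sequencing of articular cartilage from young and aged mice. They are the coactivators Yap1 and Wwtr1 (the gene for TAZ), the DNA-binding factors Tead1, Tead2, Tead3 and Tead4, the kinases Stk3 (MST2), Lats1 and Lats2, and the angiomotin-family gene Amotl2. They were chosen by gene symbol. All 10 were found among the 33971 genes of the expression table, and all 10 were among the 20397 genes that passed the filter on low counts. The samples were 3 libraries from 2-month-old and 3 from 18-month-old wild-type mice, with no treatment, transgene or knockout given for either age. The comparison addressed how expression in articular cartilage changes during aging. A library is 1 replicate, and the labels do not say whether each came from a separate animal or from pooled tissue, so p-values measure the spread between these libraries, which may be technical in part.

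Libraries held between 48171507 and 59085179 gene counts. Levels are given as FPKM, which divides a gene's count by the length of its transcripts and by the fragments of the library, so that different genes can be set side by side. A gene was called lower or higher with age where edgeR's quasi-likelihood test gave a Benjamini-Hochberg adjusted p below 0.05 and a log2 fold change past 1 in size. The tissue label was borne out at 2 months, where the summed FPKM of 16 chondrocyte markers lay between 15000 and 18600, and much less so at 18 months, where it was 1730, 367 and 362. All 16 of these markers, which include Col2a1, Acan and Sox9, were called lower with age, with a median log2 fold change of −6.50. Neutrophil and erythroid markers had higher sums in the aged libraries. The 14 neutrophil markers summed to 42900–47800 FPKM at 18 months against 8.98, 3720 and 58.3 FPKM at 2 months, and the 10 erythroid markers to 30000–39700 against 288, 7390 and 788 FPKM. All of these markers lay higher in every aged library than in any young library, but the spread of the young libraries was wide, and 1 of 14 and 3 of 10 were called higher. The second of these young libraries, 2-month replicate 2, therefore stood apart from the other 2 young libraries. The libraries also divided by sex pattern along with age: Xist had 88239–102417 counts at 2 months and 11–30 at 18 months, while the Y-linked gene Ddx3y had 0–10 and 4333–4839 counts. The methods of the study describe male mice, so the 2-month libraries went against that description, and age and sex cannot be told apart in any value below. In bulk tissue, fewer cells of a type and less RNA per cell cannot be told apart either. Young and aged cartilage below name the libraries by their labels, and all levels are relative to the RNA counted in a library.

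**Figure D1:**
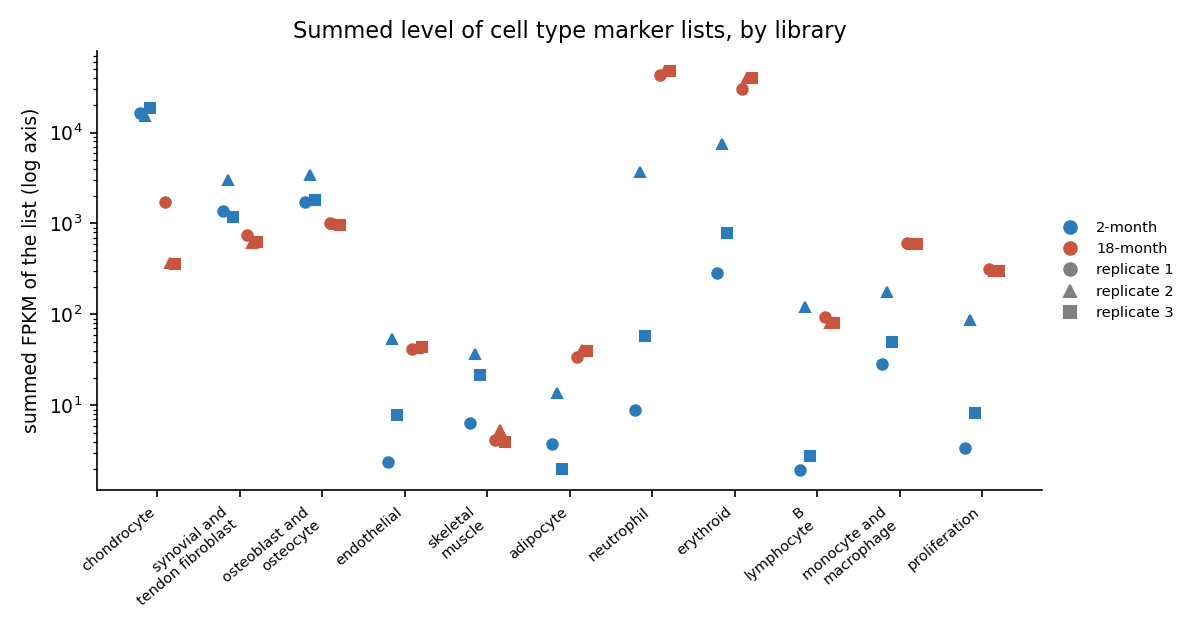
Summed FPKM of each cell type marker list (log axis) in each library, with blue for 2-month and red for 18-month libraries and the marker shape giving the replicate. Chondrocyte markers lie between 15000 and 18600 in the 2-month libraries and between 362 and 1730 in the 18-month libraries, while neutrophil markers lie between 42900 and 47800 at 18 months.

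The Hippo pathway is a kinase cascade that restrains tissue growth. The MST kinases, with the scaffold protein SAV1, activate the LATS kinases, and LATS phosphorylates YAP and TAZ so that they are held in the cytoplasm or degraded. When the cascade is quiet, for example in cells that are spread on a stiff matrix, YAP and TAZ enter the nucleus and switch on genes by binding to TEAD proteins, which hold the DNA. Angiomotin proteins tether YAP and TAZ at cell junctions, and in cartilage the pathway is studied for its effects on chondrocyte proliferation and differentiation. The pathway is controlled mainly through phosphorylation and location of proteins, neither of which RNA counts measure.

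TEAD factors bind the hexamer CATTCC, which reads GGAATG on the other strand. RefSeq promoter windows of GRCm38.p6, from 250 bases before to 50 bases after a gene's start, were available for 7 of the 10 genes and were searched for both spellings, which do not overlap each other. A match was present for Yap1, Wwtr1, Tead3, Lats2 and Amotl2 and absent from the windows of Tead2 and Lats1. That is 5 of 7 genes, or 71.4%, beside 10 of 31 (32.3%) of the other Hippo pathway genes with a window, 7 of 15 (46.7%) of listed YAP/TAZ/TEAD target genes and 4481 of 27025 (16.6%) of all RefSeq genes with a window. These shares are not separate. Amotl2 and Lats2 are also on the target list and are among its matches, and Ptpn14 is a match in both the other Hippo and the target list. Counted by window, since some genes have several starts, the hexamer was in 7 of 11 windows of these genes and in 4817 of 32851 windows (14.7%) in all. Windows of 1 gene can overlap, as those of Tead3 and Wwtr1 do, and both Wwtr1 windows hold the same hexamer. A match describes letters in the window and is not a measured binding site. The windows of Yap1, Wwtr1, Tead3, Amotl2 and Lats2 are shown because they carry the hexamer in the genes whose levels are compared here. Ccn1, Ccn2 and Ankrd1 are the pathway's most used target genes. Ccn2 had no window, and the windows of Ankrd1 and Ccn1 are shown too. Each runs 5′ to 3′ on the strand of its gene, with the hexamer in capitals.
Yap1, chr9:8004547-8004846, minus strand, with the hexamer 141 bases before the start: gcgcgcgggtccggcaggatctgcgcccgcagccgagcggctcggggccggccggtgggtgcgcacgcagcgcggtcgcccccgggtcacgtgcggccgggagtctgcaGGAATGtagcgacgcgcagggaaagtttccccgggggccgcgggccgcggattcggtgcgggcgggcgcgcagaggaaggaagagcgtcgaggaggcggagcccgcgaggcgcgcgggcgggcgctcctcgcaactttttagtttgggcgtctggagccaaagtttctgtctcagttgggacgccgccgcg
Wwtr1, chr3:57575861-57576160, minus strand, with the hexamer 136 bases before the start: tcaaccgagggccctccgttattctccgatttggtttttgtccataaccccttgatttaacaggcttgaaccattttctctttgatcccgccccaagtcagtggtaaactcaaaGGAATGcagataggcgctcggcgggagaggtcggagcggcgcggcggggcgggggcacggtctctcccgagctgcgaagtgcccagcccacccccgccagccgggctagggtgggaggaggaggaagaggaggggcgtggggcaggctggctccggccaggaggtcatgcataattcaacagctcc
Tead3, chr17:28350551-28350850, minus strand, with hexamers 123 and 114 bases before and 2 bases after the start: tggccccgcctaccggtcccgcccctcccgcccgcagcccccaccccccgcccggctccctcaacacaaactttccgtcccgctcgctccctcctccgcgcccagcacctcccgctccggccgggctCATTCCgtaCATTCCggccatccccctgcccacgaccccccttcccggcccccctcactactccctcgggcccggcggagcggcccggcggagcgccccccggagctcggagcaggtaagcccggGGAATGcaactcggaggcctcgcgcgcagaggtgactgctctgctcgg
Amotl2, chr9:102717554-102717853, plus strand, with the hexamer 65 bases before the start: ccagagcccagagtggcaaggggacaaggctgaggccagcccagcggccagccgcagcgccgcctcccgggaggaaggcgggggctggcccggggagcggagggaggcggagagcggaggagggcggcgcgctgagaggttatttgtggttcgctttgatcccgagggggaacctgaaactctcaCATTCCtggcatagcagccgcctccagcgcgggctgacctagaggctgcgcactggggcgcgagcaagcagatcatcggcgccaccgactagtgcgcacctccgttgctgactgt
Lats2, chr14:57746074-57746373, minus strand, with the hexamer 4 bases after the start: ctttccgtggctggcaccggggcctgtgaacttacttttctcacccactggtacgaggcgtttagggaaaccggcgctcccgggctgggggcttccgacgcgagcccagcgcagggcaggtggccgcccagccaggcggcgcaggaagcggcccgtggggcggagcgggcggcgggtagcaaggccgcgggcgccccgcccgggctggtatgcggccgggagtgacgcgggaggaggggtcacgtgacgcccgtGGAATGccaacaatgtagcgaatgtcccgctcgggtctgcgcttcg
Ankrd1, chr19:36119795-36120094, minus strand, with hexamers 210 and 123 bases before the start: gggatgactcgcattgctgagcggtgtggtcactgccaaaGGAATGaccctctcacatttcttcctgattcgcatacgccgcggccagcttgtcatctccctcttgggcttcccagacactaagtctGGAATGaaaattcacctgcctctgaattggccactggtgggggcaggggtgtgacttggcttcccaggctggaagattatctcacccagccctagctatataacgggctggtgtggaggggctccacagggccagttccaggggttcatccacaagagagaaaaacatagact
Ccn1, chr3:145649936-145650235, minus strand, with the hexamer 103 bases before the start: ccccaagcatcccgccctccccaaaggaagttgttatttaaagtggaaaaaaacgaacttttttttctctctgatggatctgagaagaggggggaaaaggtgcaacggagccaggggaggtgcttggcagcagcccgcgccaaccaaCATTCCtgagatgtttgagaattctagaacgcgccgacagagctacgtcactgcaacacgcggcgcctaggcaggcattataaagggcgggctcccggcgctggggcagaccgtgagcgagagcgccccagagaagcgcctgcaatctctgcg

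Most of these genes had lower levels, relative to all RNA counted, in the 18-month libraries. Yap1, Wwtr1, Tead1, Tead3, Tead4, Lats1 and Amotl2 were called lower at 18 months. That is 7 of 10 genes, against 21.3% of all tested genes called lower. None was called higher, against 14.9% of all tested genes, and 0 passed in that direction with no limit on the fold change, against 23.4%. With no limit on the fold change Stk3 and Lats2 also passed, giving 9 of 10 lower against 27.9% of all tested genes. In the same 9 genes every 18-month library lay below every 2-month library, a pattern that 34.6% of all tested genes showed in this direction. The median log2 fold change of the 10 genes was −2.31, and that of all tested genes was −0.02. By role, the coactivators were 8.35-fold and 7.15-fold lower, Tead1, Tead3 and Tead4 between 4.42-fold and 11.1-fold lower, the junction gene Amotl2 5.59-fold lower and the kinases between 1.68-fold and 2.05-fold lower. Without 2-month replicate 2, 8 of the 10 genes were called lower and 1, Tead2, was called higher, against 21.3% and 23.3% of all genes tested without that library.

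The summed levels of several other marker lists also differed between the ages, with fewer of their genes passing the test. Of 12 fibroblast markers, which summed to 1180–3040 FPKM at 2 months and 608–740 FPKM at 18 months, 6 were called lower and 1, Pi16, higher, and Col1a1 and Col1a2 overlapped between the ages. Of 8 osteoblast and osteocyte markers, which summed to 1730–3380 and 958–1010 FPKM, only Ibsp and Sp7 were called lower and the other 6 overlapped. Ibsp, at a mean of 1490 FPKM in young and 190 FPKM in aged libraries, made up much of that difference. Of 8 skeletal muscle markers, which summed to 6.32–36.8 and 3.98–5.32 FPKM, 6 were tested and 5 called lower, with Myh4 and Myh1 at 0 in all aged libraries. The 10 monocyte and macrophage markers summed to 28.2, 178 and 49.2 FPKM at 2 months and 595–611 FPKM at 18 months, with 3 called higher and 0 lower. The 8 proliferation markers summed to 3.41, 87.4 and 8.26 FPKM and then 301–314 FPKM, with 4 called higher. The 5 adipocyte markers found summed to 2–13.7 and 33.7–41 FPKM, with 3 tested and 1 called higher, and Cidec was at 0 in all aged libraries. No list had all of its markers at 0 in either age. The part of these cell types in the differences of the 10 genes was not tested.

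**Figure D2:**
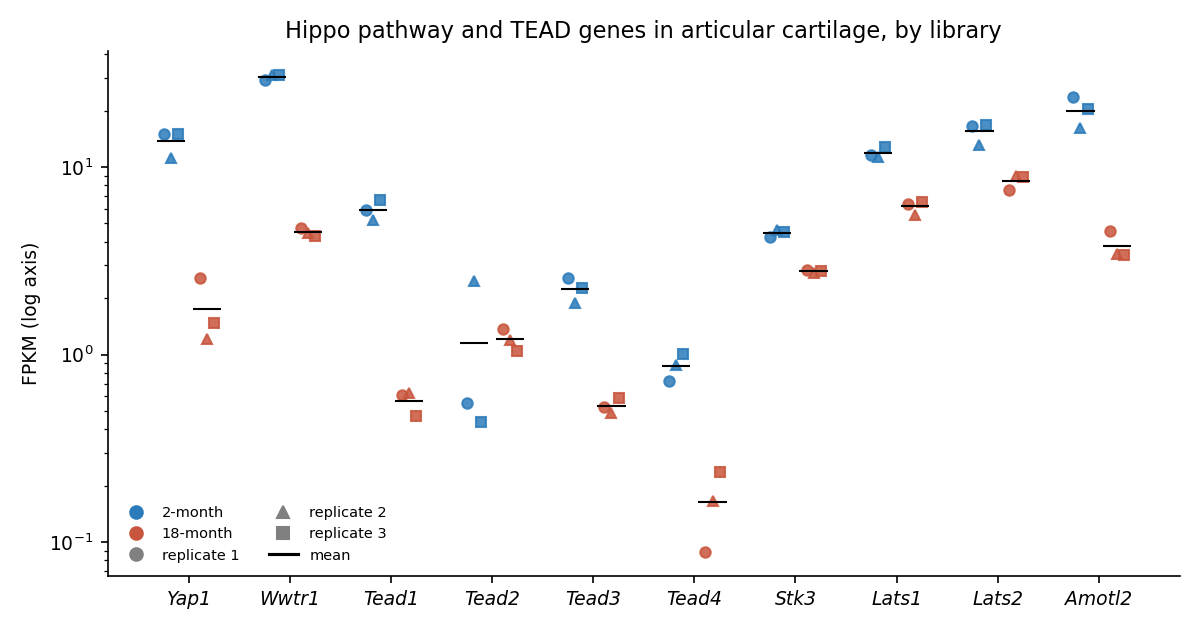
FPKM of each gene (log axis) in each library, with blue for 2-month and red for 18-month libraries, the marker shape giving the replicate and black lines the group means. The red points lie below all blue points for every gene but Tead2, whose 2-month libraries at 0.549, 2.46 and 0.439 FPKM enclose the 18-month range of 1.05 to 1.36 FPKM.

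Yap1 encodes the coactivator YAP, and lies on chromosome 9 (chr9:7931999-8004596, minus strand, coordinates of the table in GRCm38). Its level was 15.0, 11.2 and 15.0 FPKM in the 2-month libraries and 2.57, 1.21 and 1.48 FPKM in the 18-month libraries. No aged library came near the lowest young level of 11.2 FPKM, and the means were 13.7 ± 2.17 and 1.75 ± 0.722 FPKM (SD, n = 3 each). The log2 fold change was −3.06 (SE 0.33, adjusted p = 0.0018 by edgeR), which is 8.35-fold lower. In rank among the tested genes Yap1 moved from the 86.6th percentile of mean FPKM at 2 months to the 43.4th at 18 months. Exons of Yap1 share 116 bases with a gene on the opposite strand that is not listed by name among the genes with counts.

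Wwtr1 encodes TAZ, the paralogue of YAP (chr3:57455649-57575910, minus strand), and was the most abundant of the 10 genes in young cartilage. Its level was 29.1, 31.1 and 30.8 FPKM at 2 months and 4.73, 4.42 and 4.29 FPKM at 18 months. The replicates were tight at both ages, including 2-month replicate 2, and the groups were far apart. The log2 fold change was −2.84 (SE 0.10, adjusted p = 0.00071 by edgeR), a 7.15-fold fall and the smallest standard error of the 10 genes together with that of Stk3. The FPKM ratio of Wwtr1 to Yap1 was 1.93, 2.77 and 2.06 at 2 months and 1.84, 3.65 and 2.91 at 18 months. These ranges overlapped, and the log2 difference of 0.27 did not pass (exact two-sided permutation test, p = 0.6, adjusted p = 0.69 over the 8 ratios and shares tested). By FPKM, Wwtr1 was thus the higher of the 2 coactivators in all 6 libraries. This depends on the division by gene length. In counts, Yap1 was above Wwtr1 in 2-month replicate 1 (7640 against 7628) and 18-month replicate 1 (1603 against 1521), and below it in the other libraries.

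Tead1 was the leading TEAD factor of young cartilage and showed the largest fall of the 10 genes (chr7:112679318-112906807, plus strand). Its level was 5.87, 5.20 and 6.71 FPKM at 2 months and 0.612, 0.621 and 0.470 FPKM at 18 months. Every aged library was below 1 FPKM and every young library above 5 FPKM. The log2 fold change was −3.47 (SE 0.19, adjusted p = 0.00071 by edgeR), or 11.1-fold lower, and 5.49% of all tested genes fell further.

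Tead3 and Tead4, further TEAD paralogues that bind the same hexamer, were expressed at lower levels and fell too. Tead3 (chr17:28331671-28350663, minus strand) had 2.57, 1.89 and 2.25 FPKM at 2 months and 0.525, 0.487 and 0.588 FPKM at 18 months. Its log2 fold change was −2.14 (SE 0.21, adjusted p = 0.0015 by edgeR). Tead4 (chr6:128224288-128300823, minus strand) had 0.724, 0.878 and 1.01 FPKM at 2 months and 0.0887, 0.165 and 0.235 FPKM at 18 months. Its aged libraries held only 22, 38 and 54 counts, against 144, 186 and 206 in the young ones, so Tead4 was the least precisely measured of the genes that fell. Its log2 fold change was −2.48 (SE 0.44, adjusted p = 0.0065 by edgeR). On log2(FPKM + 1), where a pseudocount of 1 exceeds every aged level, the difference of Tead4 was −0.69 and no longer passed the fold limit.

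Tead2 was the exception in the family (chr7:45215753-45233644, plus strand). Its level was 0.549, 2.46 and 0.439 FPKM at 2 months and 1.36, 1.2 and 1.05 FPKM at 18 months, from 148, 694 and 119 counts and 443, 363 and 323 counts. The 2 young libraries other than replicate 2 lay below all aged libraries, and replicate 2 lay above them. Over all 6 libraries the log2 fold change was 0.03 (SE 0.65, adjusted p = 0.97 by edgeR). Without 2-month replicate 2 it was 1.17 with an adjusted p of 0.0075, a call of higher. Without 2-month replicate 1, 2-month replicate 3 or 18-month replicate 1 it was negative, at −0.28, −0.34 and −0.04, with adjusted p-values of 0.76, 0.68 and 0.97. The 6 libraries thus gave Tead2 no settled direction, and its only call came from leaving out 2-month replicate 2. That library had 54.1 FPKM of summed endothelial markers against 2.39 and 7.86 in the other young libraries and 41.7–44.3 in the aged ones, and 120 FPKM of B lymphocyte markers against 1.94 and 2.74 and 79.7–93.6. It was also the highest young library in every other marker list except the chondrocyte list, so the endothelial and B lymphocyte lists are not the only ones that set it apart. Fibroblast markers, for example, summed to 3040 FPKM there against 1380 and 1180. Over all libraries 1 of 8 endothelial markers, Vwf, and 0 of 10 B lymphocyte markers were called, and 7 and 9 of them overlapped between the ages. Tead2 shares 13 of its 4788 exon bases with the leukocyte gene Cd37 on the opposite strand, which had 0.114, 12.1 and 0.471 FPKM at 2 months and 36.3, 39.3 and 37.7 FPKM at 18 months. Cd37 is set beside it for this overlap, after values had been seen. The part of these cell types and of Cd37 in the Tead2 values was not tested.

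The make-up of the TEAD family was not the same in the libraries of the 2 ages. The summed level of Tead1 to Tead4 was 9.71, 10.4 and 10.4 FPKM at 2 months and 2.59, 2.47 and 2.34 FPKM at 18 months. Tead1 made up 60.4, 49.9 and 64.5% of that sum in the young libraries and 23.7, 25.1 and 20.1% in the aged libraries. The share of Tead2 was 5.66, 23.6 and 4.22% at 2 months and 52.6, 48.4 and 44.8% at 18 months. For both factors the ages did not overlap, with mean shares of 58.3% ± 7.55 against 23.0% ± 2.62 for Tead1 and 11.2% ± 10.8 against 48.6% ± 3.88 for Tead2 (SD, n = 3 each). The exact two-sided permutation test gave p = 0.1 for each, the smallest value that 3 against 3 libraries allow, and 0.2 after adjustment over the 8 ratios and shares. By FPKM, Tead1 was the largest part of the sum in all 3 young libraries and Tead2 in all 3 aged libraries. The aged lead of Tead2 depends on the division by gene length. In counts, Tead1 stayed above Tead2 in the aged libraries, at 559, 530 and 407 against 443, 363 and 323. The FPKM ratio of Tead2 to Tead1, chosen after values had been seen, was 0.0936, 0.474 and 0.0654 in young and 2.22, 1.93 and 2.24 in aged cartilage.

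**Figure D3:**
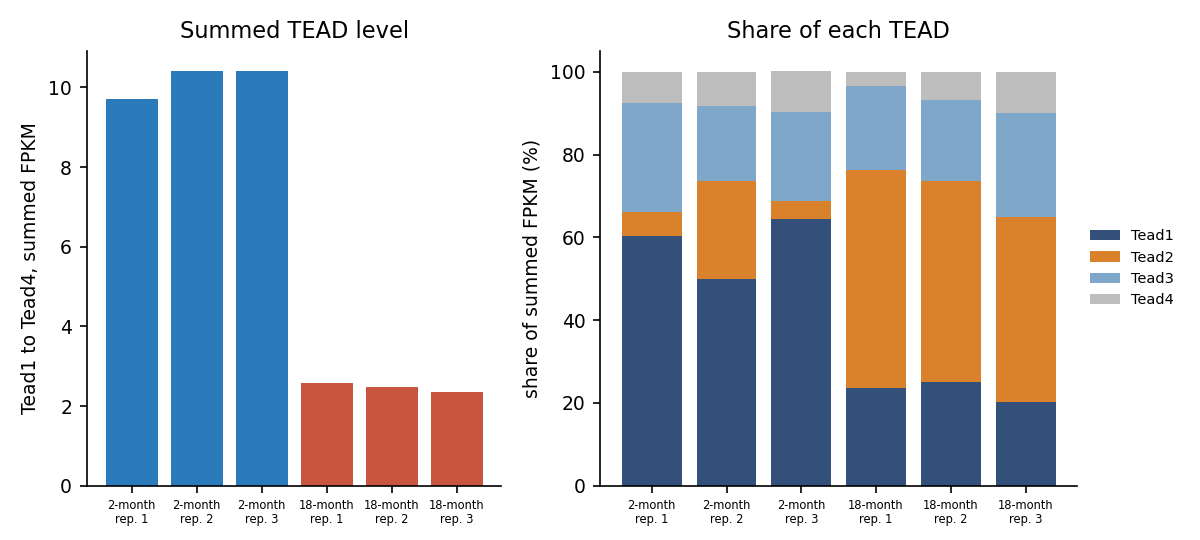
Left, summed FPKM of Tead1 to Tead4 in each library, with blue for 2-month and red for 18-month libraries; right, the percentage of that sum from each factor. The sum is 9.71 to 10.4 FPKM at 2 months and 2.34 to 2.59 FPKM at 18 months, and the Tead2 share is 44.8% to 52.6% in the 18-month libraries and at most 23.6% in the 2-month libraries.

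The shares of the other two TEAD factors did not separate the ages. Tead3 held 26.4, 18.1 and 21.6% of the sum at 2 months and 20.3, 19.7 and 25.1% at 18 months (exact permutation p = 1). Tead4 held 7.46, 8.42 and 9.74% and then 3.43, 6.69 and 10% (exact permutation p = 0.5, adjusted p = 0.69). With so few libraries these values do not show that the shares were equal. The coactivators were also set against the factors they bind. The ratio of summed Yap1 and Wwtr1 to summed TEAD was 4.54, 4.06 and 4.40 in young and 2.83, 2.28 and 2.46 in aged cartilage. All aged ratios were below all young ratios, a log2 difference of −0.79 (exact permutation p = 0.1, adjusted p = 0.2).

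The kinases that inhibit YAP and TAZ had smaller log2 fold changes. Stk3 encodes MST2, which activates the LATS kinases (chr15:34875496-35178921, minus strand). Its level was 4.24, 4.60 and 4.49 FPKM at 2 months and 2.84, 2.73 and 2.78 FPKM at 18 months. The groups were tight and did not overlap, but the log2 fold change of −0.75 (SE 0.10, adjusted p = 0.0026 by edgeR) stayed inside the fold limit, so Stk3 was not called. The highest aged library of Stk3 was at 2.84 FPKM, and 31.5% of all tested genes had a lower log2 fold change.

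Lats1 and Lats2 encode the kinases that phosphorylate YAP and TAZ directly. Lats1 (chr10:7681214-7716460, plus strand) had 11.6, 11.3 and 12.8 FPKM at 2 months and 6.37, 5.58 and 6.54 FPKM at 18 months. Lats2 (chr14:57689662-57746123, minus strand) had 16.5, 13.1 and 16.8 FPKM and then 7.57, 8.94 and 8.81 FPKM. For both kinases all aged libraries lay below all young ones, and the 2 differences were of similar size. The log2 fold change of Lats1 was −1.03 (SE 0.13, adjusted p = 0.0022 by edgeR) and that of Lats2 was −0.96 (SE 0.17, adjusted p = 0.0069 by edgeR), so they fell on either side of the fold limit of 1. The call of Lats1 was lost without 2-month replicate 3 (−0.95) or 18-month replicate 2 (−0.96), and Lats2 was called without 2-month replicate 2 (−1.07) or 18-month replicate 2 (−1). The ratio of Lats2 to Lats1 was 1.42, 1.16 and 1.31 in young and 1.19, 1.60 and 1.35 in aged cartilage, a log2 difference of 0.08 (exact permutation p = 0.6, adjusted p = 0.69). Of the 6971 exon bases of Lats2, 2955 are shared with a gene on the same strand. That gene is not listed by name among the genes with counts, so the share of reads that belongs to Lats2 is uncertain.

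The kinases were likewise set against their substrates. The summed FPKM of Lats1 and Lats2 was 0.638, 0.578 and 0.646 times that of Yap1 and Wwtr1 at 2 months and 1.91, 2.58 and 2.66 times at 18 months. All young ratios were below 1 and all aged ratios above it, with a log2 difference of 1.93 (exact permutation p = 0.1, the smallest possible, adjusted p = 0.2). Such a ratio is taken within a library and does not depend on how libraries were scaled, but it is made of RNA from all cells of the tissue together.

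Amotl2 encodes angiomotin-like 2, a junction protein that binds YAP and TAZ and is itself a TEAD target gene (chr9:102716672-102733418, plus strand). Its level was 23.5, 16.1 and 20.4 FPKM at 2 months and 4.57, 3.45 and 3.39 FPKM at 18 months. By mean level it stood second to Wwtr1 in young cartilage, and in aged cartilage its range overlapped that of Wwtr1. The log2 fold change was −2.48 (SE 0.22, adjusted p = 0.0012 by edgeR), which is 5.59-fold lower.

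**Figure D4:**
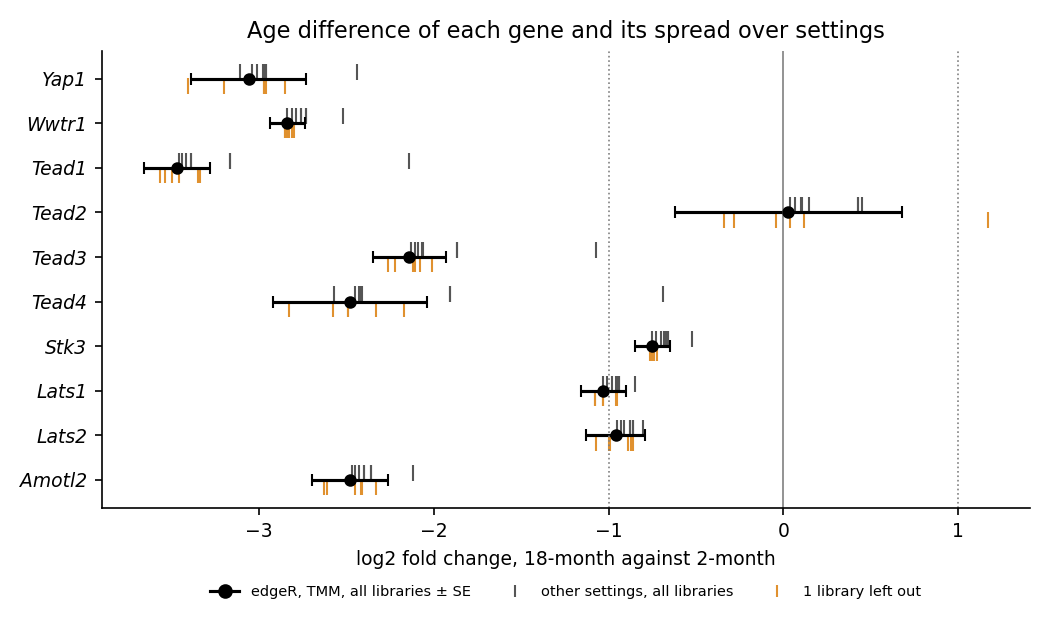
Log2 fold change of each gene, 18-month against 2-month, with black points and bars for edgeR with all libraries ± SE, grey ticks for other tests, scalings and filters, orange ticks for fits that leave out 1 library, and dotted lines at the fold limit of 1. Lats1 and Lats2 sit at the limit, at −1.03 and −0.96, and the fits of Tead2 without 1 library run from −0.34 to 1.17.

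The order of the 10 genes by mean FPKM was not the same at the 2 ages. At 2 months Wwtr1 was highest, followed by Amotl2, Lats2, Yap1 and Lats1, whose neighbours in this order overlapped, and then by Tead1 and Stk3, which stood apart from their neighbours. Tead3, Tead2 and Tead4 came last, and the range of Tead2 overlapped both others. At 18 months the LATS kinases led, with Lats2 above Lats1 in every library. Wwtr1 and Amotl2 followed and overlapped, then Stk3 alone, then Yap1 and Tead2, which overlapped, then Tead1 and Tead3, which overlapped, and last Tead4. Mean levels ran from 30.3 FPKM for Wwtr1 to 0.872 FPKM for Tead4 at 2 months, and from 8.44 FPKM for Lats2 to 0.163 FPKM for Tead4 at 18 months.

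The other genes of the pathway were divided. Of 38 listed genes, 36 were in the table and all 36 were tested. The expression of Vgll1 and Vgll2 was not analysed here, though their promoter windows were among those searched above. Called lower were 9 of 36, against 21.3% of all tested genes, and called higher were 6 of 36, against 14.9%, so neither share was far from that of all genes. Their median log2 fold change was −0.28. By place in the pathway the counts were uneven. Among 13 membrane and junction genes 8 were called lower and 0 higher, with a median of −1.47, whereas among 14 kinases and scaffolds 0 were called lower and 6 higher, with a median of 0.63.

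On the junction side the genes that fell came from several complexes. Amotl1, the paralogue of Amotl2, had 13.9, 20.2 and 14.2 FPKM at 2 months and 4.69, 1.79 and 2.13 FPKM at 18 months (log2 fold change −2.57, SE 0.40, adjusted p = 0.0042 by edgeR). The ratio of Amotl1 to Amotl2, set out after values had been seen, overlapped between the ages at 0.591–1.25 and 0.517–1.03. Fjx1, a kinase of the Fat and Dachsous cadherin branch, showed the largest fall of the list at −3.17 (SE 0.22, adjusted p = 0.00084). Nf2, the gene for the scaffold protein merlin, had a log2 fold change of −0.92 (SE 0.16, adjusted p = 0.0066), inside the fold limit. Limd1, a LIM protein that binds LATS, was not called, with a log2 fold change of 0.32 (adjusted p = 0.30). The remaining genes called lower were Wwc2 at −1.47, Fat4 at −1.27, Dchs1 at −2.41, Ptpn14 at −2.80, Ajuba at −2.74 and Wtip at −2.62.

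On the kinase side Stk4, which encodes MST1 and is the paralogue of Stk3, had 5.41, 14.1 and 5.47 FPKM at 2 months and 39.5, 36.1 and 36.8 FPKM at 18 months. It rose, with a log2 fold change of 2.12 (SE 0.38, adjusted p = 0.0066 by edgeR). The ratio of Stk4 to Stk3, chosen after values had been seen, was 1.28, 3.07 and 1.22 in young and 13.9, 13.2 and 13.2 in aged cartilage. Of the young libraries 2-month replicate 2 was highest in Stk4, as it was in leukocyte markers, and the part of those cells in the Stk4 values was not tested. Mob1a, the adaptor that lets LATS be activated, rose by 1.12 on the log2 scale (SE 0.21, adjusted p = 0.0072) and Map4k2, an alternative activator of LATS, by 1.51 (SE 0.32, adjusted p = 0.011). Mob1b, Taok3 and Tnik were called higher too, at 1.59, 1.96 and 3.38. Like Stk4, all of these genes called higher had their highest young level in 2-month replicate 2. So did genes of this list that did not rise, such as Map4k3 (3.73, 5.89 and 3.69 FPKM at 2 months, log2 fold change −0.87) and Map4k4 (10.6, 21.8 and 12.8 FPKM, −0.24). The trait is thus not particular to the genes called higher, and the part of leukocytes in their rises was not tested. Sav1, the scaffold of the MST kinases, had a log2 fold change of 0.01 (adjusted p = 0.93).

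The phosphatase complex STRIPAK, which switches MST kinases off, had 0 of 7 genes called in either direction and a median of 0.23. Its most abundant gene, the kinase Stk25, had a log2 fold change of −0.93 (SE 0.13, adjusted p = 0.0032), Slmap 0.39 (adjusted p = 0.02) and Strn4 0.23 (adjusted p = 0.16). Vgll4, a cofactor that competes with YAP for TEAD, had 17.9, 21.7 and 20.3 FPKM at 2 months and 8.98, 6.16 and 6.66 FPKM at 18 months, a log2 fold change of −1.54 (SE 0.16, adjusted p = 0.0016). Vgll3 had at most 0.104 FPKM in any library and was not called (adjusted p = 0.18).

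**Figure D5:**
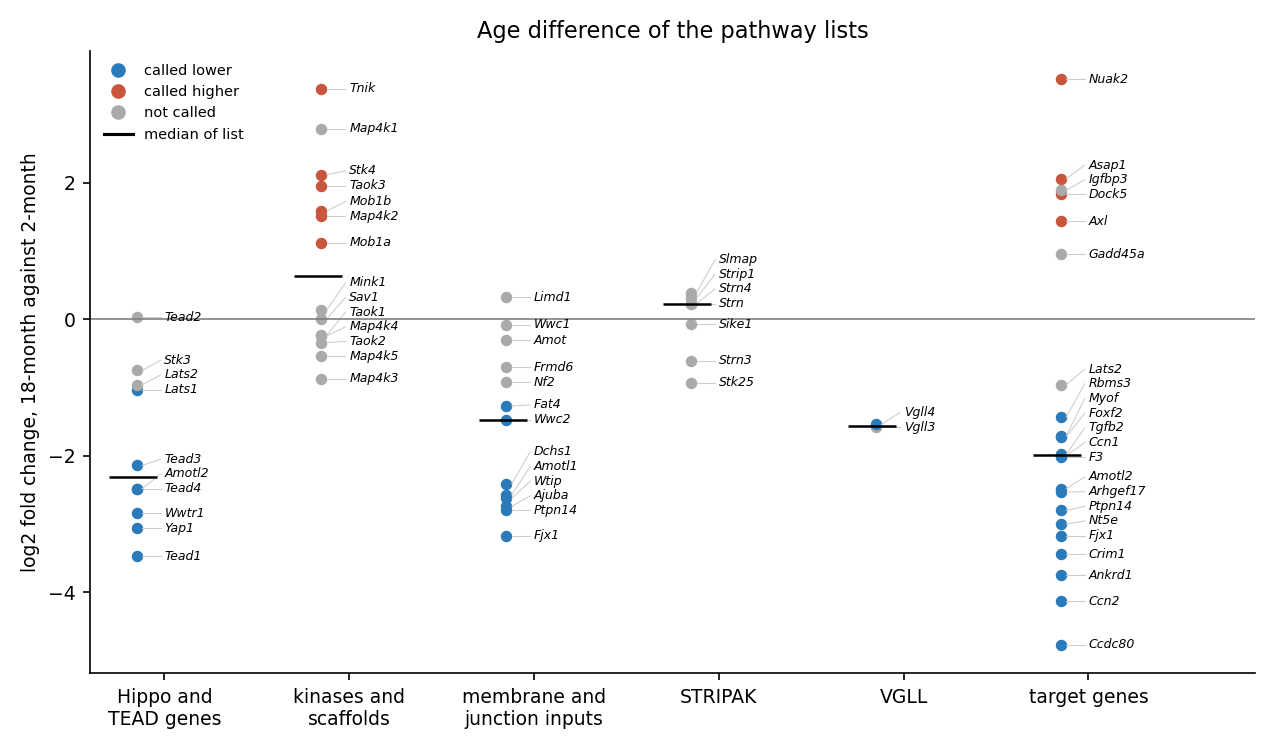
Log2 fold change, 18-month against 2-month, of every tested gene of each list, with blue for called lower, red for called higher, grey for not called and black bars for list medians. The kinases and scaffolds have a median of 0.63 with 6 genes called higher, and the membrane and junction inputs a median of −1.47 with 8 called lower.

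Target genes of YAP, TAZ and TEAD were mostly lower in aged cartilage, and 2 of the 22 listed ones, Amotl2 and Lats2, are among the 10 genes above. Of all 22, 15 were called lower and 4 higher, with a median of −1.99. Without those 2, 14 of 20 were called lower, against 21.3% of all tested genes, and 4 of 20 higher, against 14.9%. Fjx1 and Ptpn14, both called lower, are also counted among the membrane and junction genes, so those counts and the target counts share genes. The list was written by hand from common knowledge of the pathway and holds several genes of the extracellular matrix and its cells.

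The matrix proteins CCN1 and CCN2 and the ankyrin protein ANKRD1 are the usual readouts of YAP and TAZ activity. Ccn2 had 1490, 514 and 1350 FPKM at 2 months and 118, 46.0 and 43.8 FPKM at 18 months (log2 fold change −4.13, SE 0.66, adjusted p = 0.0048 by edgeR). Ccn1 had 125, 85.7 and 67.8 FPKM and then 19.3, 26.4 and 27.9 FPKM (−2, SE 0.29, adjusted p = 0.0037). Ankrd1, a low-abundance gene here, had 1.88, 1.3 and 1.35 FPKM and then 0.0179, 0.217 and 0.108 FPKM, the last 3 from 4, 40 and 21 counts (−3.75, SE 0.83, adjusted p = 0.013). The aged libraries lay below the young libraries for all 3 genes. Ccn2 is also known to be expressed by chondrocytes, and the part of the lower chondrocyte marker level in its fall was not tested.

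Among the other targets the largest fall was that of Ccdc80, a matrix protein, from 242, 226 and 237 FPKM to 15.0, 6.44 and 6.03 FPKM, which is 27.3-fold lower (log2 fold change −4.77, SE 0.43, adjusted p = 0.0013 by edgeR). The largest rise was that of Nuak2, a kinase that supports YAP activity, from 0.230, 0.909 and 0.287 FPKM to 5.40, 5.81 and 5.79 FPKM (3.52, SE 0.54, adjusted p = 0.0042). Asap1, Axl and Dock5 were called higher as well, at 2.06, 1.44 and 1.83. Nuak2, Asap1, Axl and Dock5 each had their highest young level in 2-month replicate 2. Some targets called lower did too, such as Myof (4.23, 6.05 and 5.22 FPKM at 2 months) and Tgfb2 (3.08, 4.94 and 3.71 FPKM). The part of leukocytes or other cell types in the rises was not tested. Of the 22 targets, 16 lay lower in every aged library than in any young library, against 34.6% of all tested genes, and 6 lay higher, against 33.9%.

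Genes whose pattern over the 6 libraries was closest to that of Yap1 and Wwtr1 were found by the root mean square difference of log2 CPM centred on each gene's mean, among the 13900 genes whose mean FPKM reached 1. For Yap1 they were Smad9, a transducer of BMP signals, at 0.10, the liprin gene Ppfibp1 at 0.11 and the homeobox gene Meis2 at 0.11, with log2 fold changes of −3.09, −2.97 and −3.25. For Wwtr1 they were Gpx7, a peroxidase of the endoplasmic reticulum, at 0.10, the collagen cross-linking enzyme Loxl3 at 0.10 and Tulp3 at 0.11, with log2 fold changes of −2.72, −2.89 and −2.88. These distances are a description over 6 libraries that share the same age difference.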

How the data were processed

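RNA of articular cartilage was poly(A)-selected and made into strand-specific, paired-end libraries. Per the submitters' processing notes, cutadapt 1.9, HISAT2 2.0.4, UMI-tools, StringTie 1.3.4d, DESeq2 and edgeR were used, with no roles given. The authors deposited raw counts per gene and library without normalization. The authors also deposited FPKM values, which divide the count by gene length and by library fragments; within each of the 10 genes the ratio of count to FPKM per library, once scaled for depth, deviated by at most 1.38%, so a fixed length was used for each gene. The strand setting of the counting is not given in the sources used here; Tsix, which shares 1980 exon bases with Xist on the other strand, had 16, 15 and 9 counts at 2 months. Positions of 8 of the 10 genes were identical in GENCODE M21 (GRCm38); Tead3 and Lats2 differed.

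The main test used edgeR 4.0.16 in R 4.3.3 (counts, TMM, filterByExpr, glmQLFit, glmQLFTest, all 6 libraries, no covariate), with Benjamini-Hochberg adjustment over 20397 genes and the fold limit of the study. The SE was obtained by dividing the log2 fold change by root F. Ratios and shares were tested by exact two-sided permutation, for which 0.1 is the smallest p. Alternatives were DESeq2 1.42.0, limma 3.58.1 with trend on log2(FPKM + 0.1) or log2(FPKM + 1), other scalings and filters, a block by replicate number, and leaving out each library. Scripts were tested on simulated data. Replicates differed by more than sampling noise (chi-square 6.32 to 48.7 times that of sampling alone). All columns of values per library were used (0 left out). The genes and all lists were chosen with earlier results of these data known. Named besides the 10 genes were, per list, the 3 most abundant genes and the called genes with the largest rise and fall among genes whose mean FPKM reached 1, plus Ccn1, Ccn2 and Ankrd1; further genes of the lists are named where a count is spelled out, after values had been seen. Promoters are from RefSeq (GRCm38.p6). Figures used Python 3.11.15 and matplotlib 3.10.9.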

Additional observations from a re-analysis of the deposited data

How the results depend on the processing

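The directions of Yap1, Wwtr1, Tead1, Tead3, Tead4, Stk3, Lats1, Lats2 and Amotl2 were the same in all alternatives run, and Yap1, Wwtr1, Tead1, Tead3 and Amotl2 were called in each of them. Tead4 lost its call on log2(FPKM + 1) in limma (−0.69), and its libraries held few counts. Lats1 was not called with median-of-ratios size factors (−0.98), library totals alone (−0.96), DESeq2 (−0.95), limma on log2(FPKM + 0.1) with or without the filter (−0.94 each) or limma on log2(FPKM + 1) (−0.85), all with adjusted p below 0.05. Leaving out 1 library gave −1.08 to −0.95 for Lats1, −1.07 to −0.86 for Lats2, with calls at −1.07 and −1, and −0.34 to 1.17 for Tead2, which turned negative at −0.28, −0.34 and −0.04. The number of the 10 genes called ran from 6 to 8 lower and from 0 to 1 higher without 1 library, and was 5 lower by limma on log2(FPKM + 1) and 9 lower with no limit on the fold change. Other Hippo genes called lower were 9, and 15 with no limit on the fold change. The Wwtr1 to Yap1 difference turned to −0.08 with 1 FPKM added, and the Lats2 to Lats1 difference ran from −0.03 to 0.18 without 1 library, negative without 18-month replicate 2. The Tead3 share difference turned to 6.08 percentage points on counts not divided by length and 0.877 with 1 FPKM added, and ran from −2.29 to 1.88 without 1 library, being positive at 1.88, 0.376 and 0.668. The Tead4 share difference turned to 0.405 and 4.81 under the first 2 of these. Under the same 2 settings the Tead2 share difference of 37.4 percentage points became 27.2 and 18.9. That of Tead1, at −35.3, became −33.7 and −24.6. Where no construction of the alternative shows it, the cause was not tested.

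Same-numbered libraries shared only a number: their deviations from the group means correlated at 0.02, 0.04 and −0.01 across genes, and 2-month replicate 3 correlated best with 18-month replicate 1. With the replicate number as a block, 7 of the 10 genes were called lower and 0 higher, the same counts as without it, Yap1 was at −3.11 (adjusted p = 0.011) and Tead2 at 0.45 (adjusted p = 0.56). All genes called were 3509 lower and 2523 higher with the block, 4354 and 3047 without it, 5180 and 4414 by DESeq2, 4259 and 4365 by limma on log2(FPKM + 0.1), 2217 and 3041 by limma on log2(FPKM + 1), and 4576 and 5007 without 2-month replicate 2. The median of all genes moved between −0.07 and 0.07. Depth limits Tead4, Ankrd1 and Vgll3.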
